A study of Mus musculus with 6 samples.

Results

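The miRNAs described here are 8 mature arms that are processed from precursors inside the mouse Hox gene clusters. They are mmu-miR-10a-5p, mmu-miR-10a-3p, mmu-miR-10b-5p, mmu-miR-10b-3p, mmu-miR-196a-5p, mmu-miR-196b-5p, mmu-miR-615-3p and mmu-miR-615-5p, and they were taken by name from the 1915 mature miRNAs listed in each library. All 8 had reads and passed the filter of at least 10 reads summed over the libraries, as did 1120 miRNAs in all. The set was chosen by its genomic position and with the sex difference of the miR-10 arms in these same libraries already known, so their levels and their female to male differences are given as a description. Where members are counted as past a threshold of the fit over all miRNAs, the count describes these libraries and supports nothing further. Small RNA sequencing was performed on whole brain RNA from wild-type C57BL/6 embryos at E15.5, and each sex was represented by 3 libraries. Neither group carried a further allele or treatment. Each library pooled the RNA of 2 to 3 embryos, whose sex was read from the presence of testicular cords in the gonad. p-values therefore measure the spread between pools, and the posterior limit of the dissected brain is not given in the sources used here. The total count on miRNAs ranged from 14802675 to 59362011 reads. Female library 2 had the highest total and stood apart from the others, with 660 miRNAs detected against 790 to 915 and a median of 1846.5 reads per detected miRNA against 218 to 352.

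Hox genes encode homeodomain transcription factors that give cells their position along the head to tail axis. Within a cluster, the order of the genes follows the order of their anterior limits of expression, so that genes of low number reach into the hindbrain and genes of high number are limited to the spinal cord and more caudal tissue, while forebrain and midbrain lack Hox expression. The miRNA genes interspersed among them tend to follow their neighbours, and miR-10 and miR-196 are known to repress Hox mRNAs. Each precursor hairpin yields a 5p and a 3p arm. Usually only 1 of the arms is loaded into Argonaute as the guide, and the bases 2 to 8 of the guide, the seed, direct most of its pairing with target mRNAs.

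The mature sequences are shown because the members differ by very few bases, which bears on how reads were assigned to them. They were taken from RefSeq (GRCm38.p6), in which all 8 names were matched, and the capitals mark the seed.
miR-10a-5p: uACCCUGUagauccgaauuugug
miR-10b-5p: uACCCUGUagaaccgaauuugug
miR-10a-3p: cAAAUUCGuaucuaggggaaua
miR-10b-3p: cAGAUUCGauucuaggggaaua
miR-615-3p: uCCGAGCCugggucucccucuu
miR-615-5p: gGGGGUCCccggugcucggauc
miR-196a-5p: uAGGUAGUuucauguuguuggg
miR-196b-5p: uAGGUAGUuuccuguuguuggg
The 5p arms of miR-10a and miR-10b shared their seed and differed at 1 of 23 positions, U12A, with positions counted from 1 at the 5′ end and the base of miR-10a first. No other mature miRNA among the 1679 in the table carried that seed. Both miR-196 arms also shared a seed and differed at 1 of 22 positions, A12C with the base of miR-196a first. The 3p arms of miR-10a and miR-10b differed at 3 of 22 positions, A3G, U9A and A10U, the first of which lies in the seed. The number of mismatches allowed in mapping and the treatment of reads with several matches are not given in the sources used here, and how reads with a changed base were divided between near-identical arms was not tested.

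The precursors lie in all 4 Hox clusters, and their places are given on mm9 with the genes of GENCODE vM1. Mir10a lies in the HoxB cluster (chr11:96178479-96178588, plus strand), in an exon annotated as untranslated sequence of a transcript of Hoxb4. Mir10b lies in the HoxD cluster (chr2:74564127-74564194, plus strand), in intronic sequence within the spans of Hoxd3 and Hoxd4. Both therefore sit beside genes of paralogous group 4, which reach into the hindbrain. Mir615 lies in the HoxC cluster (chr15:102845341-102845432, plus strand), within an intron of Hoxc5, 1 paralogous group further caudal. The miR-196 genes lie furthest towards the caudal end. Mir196a-1 is intergenic, 6192 bp from Hoxb9 (chr11:96126478-96126579, plus strand), and Mir196a-2 is intergenic between Hoxc10, 1448 bp away, and Hoxc9, 2989 bp away (chr15:102803772-102803881, plus strand). Mir196b lies in an exon annotated as untranslated sequence of Hoxa9, 1032 bp from Hoxa10 (chr6:52180080-52180164, minus strand). Both Mir196a genes yield the same miR-196a-5p, so its reads cannot be assigned to either.

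The miR-10 5p arms accounted for nearly all reads of the set. Levels are given as CPM, the count of a miRNA per 1000000 of the total count on miRNAs of the library. Some reads appear to enter that total under more than 1 name, since let-7a-1-3p and let-7c-2-3p had the same mean count of 1346.83 and the same log2 fold change. mmu-miR-10a-5p, the guide strand of Mir10a, reached 6592, 4992 and 6357 CPM in the females and 852, 972 and 1050 CPM in the males, each in the order of library number. Its lowest female library lay far above its highest male library, and the mean was 5980 ± 864 CPM in females and 958 ± 100 CPM in males (SD, n = 3), a ratio of 6.24. mmu-miR-10b-5p, the guide strand of Mir10b, stood at 5695, 3621 and 4908 CPM in females and at 807, 894 and 1005 CPM in males. The sexes were again apart, with means of 4741 ± 1047 and 902 ± 98.9 CPM (SD, n = 3) and a ratio of 5.26. By read count miR-10a-5p ranked 29 to 32 among all miRNAs in the female libraries and 99 to 112 in the male libraries, and miR-10b-5p ranked 32 to 40 and 103 to 115. Female library 2 held the lowest female value of both arms, and without it the ratios were 6.76 for miR-10a-5p and 5.88 for miR-10b-5p.

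**Figure D1:**
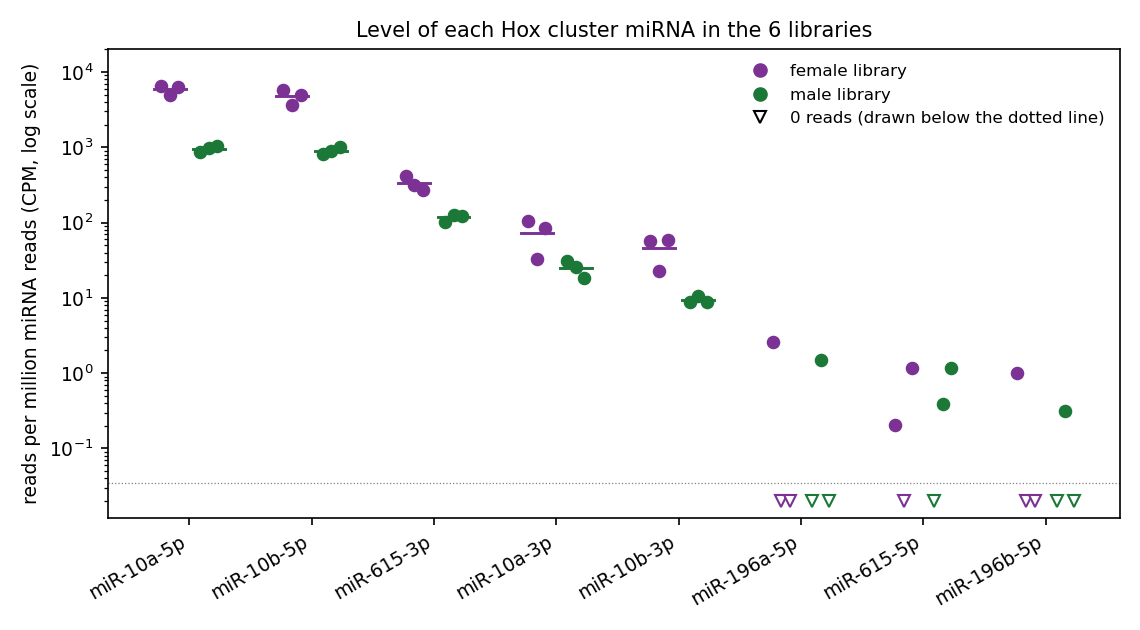
Level of each Hox cluster miRNA in each library, in CPM on a log scale, with each point a library, coloured by sex. Lines mark the mean where all 3 libraries had reads, and open triangles mark libraries with 0 reads. The 5p arms of miR-10a and miR-10b lie between 3621 and 6592 CPM in females and between 807 and 1050 CPM in males, while the 5p arms of miR-196a, miR-196b and miR-615 stay below 3 CPM wherever reads were counted.

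The passenger arms of the same hairpins were read far less often than the guides. mmu-miR-10a-3p stood at 103, 33.3 and 84.5 CPM in females and at 30.8, 25.6 and 18.5 CPM in males. Female library 2, the lowest of its sex, came close to male library 1 without falling below it, and the ratio of the means was 2.95, or 3.76 without female library 2. mmu-miR-10b-3p stood at 56.9, 22.8 and 58.4 CPM in females and at 8.94, 10.6 and 8.72 CPM in males. Here the sexes lay further apart, with a ratio of 4.88, or 6.12 without female library 2.

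For miR-615 the 3p arm is the abundant strand. mmu-miR-615-3p stood at 416, 315 and 270 CPM in females and at 102, 126 and 123 CPM in males. All female libraries exceeded all male libraries, with means of 334 ± 74.8 and 117 ± 12.9 CPM (SD, n = 3) and a ratio of 2.85. The other arm, mmu-miR-615-5p, had 3, 0 and 42 reads in females and 0, 17 and 28 reads in males, against 1908 to 18693 reads of miR-615-3p. It therefore varied within each sex over the whole of its range, and the sexes overlapped. In CPM its highest levels were 1.17 in female library 3 (95% Clopper-Pearson interval 0.845 to 1.59) and 1.18 in male library 3 (0.787 to 1.71), where intervals here cover counting error only.

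The miR-196 arms were counted in only 1 library of each sex. mmu-miR-196a-5p had 38 reads in female library 1 and 66 in male library 2, or 2.57 CPM (95% Clopper-Pearson interval 1.82 to 3.52) and 1.5 CPM (1.16 to 1.91). mmu-miR-196b-5p had 15 and 14 reads in these same libraries, or 1.01 CPM (0.567 to 1.67) and 0.319 CPM (0.174 to 0.535). Both were at 0 in the other 4 libraries, in which a count of 0 allows, at 3 reads, up to 0.0505 CPM in female library 2, 0.0838 in female library 3, 0.161 in male library 1 and 0.127 in male library 3. For miR-196b-5p in males the ranges touched, since the Clopper-Pearson upper bound at 0 reads was 0.197 CPM in male library 1. No difference between libraries is read from such low counts. Such a pattern was shared by other rare miRNAs, since 13 miRNAs, the miR-196 arms included, had at least 10 reads in female library 1 and male library 2 and none elsewhere, and for other pairs of libraries this number was 0 to 14. The remaining arms of the Hox cluster precursors, miR-196a-1-3p, miR-196a-2-3p and miR-196b-3p, had 0 reads in all 6 libraries.

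Summed over the 8 members, Hox cluster miRNAs made up 1.12% ± 0.199 of the total count on miRNAs in females and 0.201% ± 0.0203 in males (SD, n = 3). The miR-10 5p arms took 95.5% to 96.5% of that sum in females and 91.9% to 93.1% in males. Ordered by level, the set ran from miR-10a-5p through miR-10b-5p, miR-615-3p, miR-10a-3p, miR-10b-3p, miR-196a-5p and miR-615-5p to miR-196b-5p. Neighbours in this order were set side by side within libraries as the log2 ratio of their reads, with a pseudocount of 0.5 reads, and without a test, since the order was read from these same libraries. miR-10a-5p exceeded miR-10b-5p in 6 of 6 libraries, though by only 0.22 ± 0.17 on the log2 scale (SD, n = 6). miR-10b-5p exceeded miR-615-3p by 3.39 ± 0.53, miR-615-3p exceeded miR-10a-3p by 2.28 ± 0.61, and miR-10a-3p exceeded miR-10b-3p by 1.01 ± 0.48, each in 6 of 6 libraries. The step from miR-10b-3p to miR-196a-5p was also found in 6 of 6 libraries, at 7.96 ± 3.69 on this scale. In the 4 libraries with 0 reads of miR-196a-5p its size is set by the pseudocount and the depth, and with a pseudocount of 1 read the mean was 7.29. Below this step, the neighbours did not differ beyond their spread, with a mean log2 ratio of -1.14 ± 4.07 for miR-196a-5p over miR-615-5p and of 1.73 ± 3.52 for miR-615-5p over miR-196b-5p (SD, n = 6). This order covers reads and not molecules, since ligation and amplification can differ between sequences.

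Some ratios between members of 1 library, which the total count of a library cannot change, also differed between the sexes in these libraries. Only the 5p to 3p ratios were set beside the share over all such precursors. For the other ratios the share among all pairs of miRNAs was not counted, so their lack of overlap is given as a description. Reads of miR-10a-5p per read of miR-10b-5p were 1.16, 1.38 and 1.30 in females and 1.06, 1.09 and 1.05 in males. The sexes did not overlap, although the difference was small, at -0.26 on the log2 scale (male minus female). Between the passenger arms the ratio went the other way, with 1.81, 1.46 and 1.45 reads of miR-10a-3p per read of miR-10b-3p in females and 3.44, 2.42 and 2.13 in males. The 5p to 3p ratio of miR-10a was 63.9, 150 and 75.2 in females and 27.7, 37.9 and 56.7 in males, a log2 difference of -1.2 with no overlap. For miR-10b it was 100, 159 and 84.1 in females and 90.3, 84.3 and 115 in males, so the sexes overlapped, with a log2 difference of -0.21. Female library 2 gave the highest ratio for both hairpins. Among the 160 precursors whose arms both averaged at least 100 reads, 16.9% had a 5p to 3p ratio that was lower in males without overlap, and from the 10th to the 90th percentile the difference ran from -1.03 to 1.2, so that of miR-10a lay just outside this range and that of miR-10b within it. Without female library 2 the difference was -0.83 for miR-10a, inside the range of -1.19 to 1.26 found then, and 0.06 for miR-10b, with the sign turned. Against miR-615-3p, the miR-10 guides were lower in males than in females, in reads without the GC offset given below. Reads of miR-10a-5p per read of miR-615-3p were 15.8, 15.9 and 23.5 in females and 8.34, 7.74 and 8.53 in males, without overlap, and those of miR-10b-5p were 13.7, 11.5 and 18.2 against 7.90, 7.12 and 8.16.

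**Figure D2:**
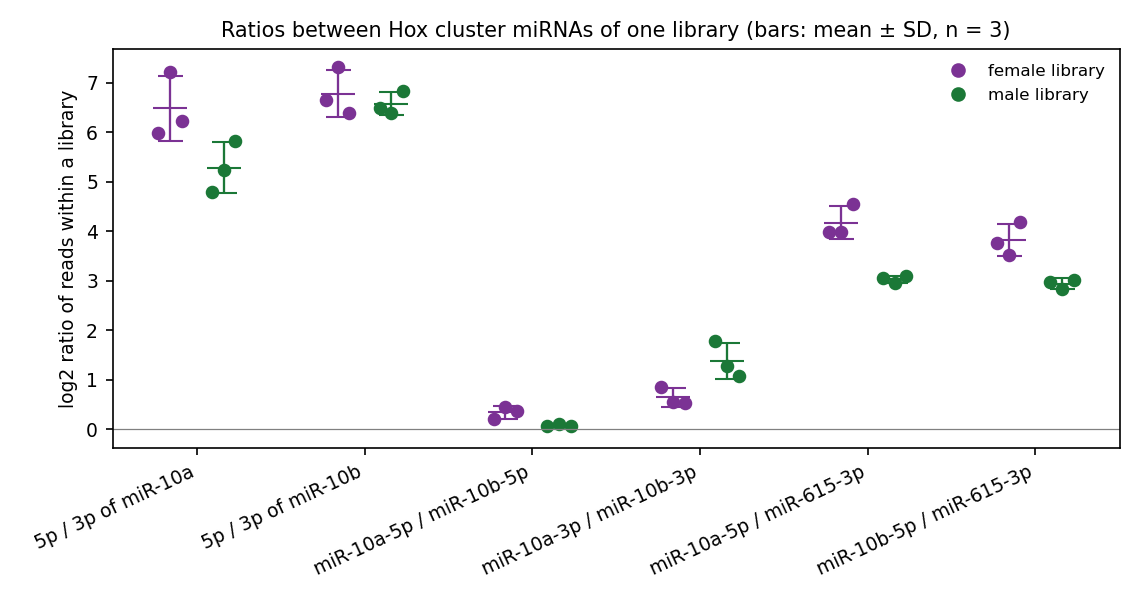
Log2 ratios of reads within each library, with each point a library, coloured by sex, and bars for the mean ± SD of 3 libraries. The ratio of miR-10a-5p to miR-10b-5p, before taking the log, runs from 1.16 to 1.38 in females and from 1.05 to 1.09 in males, while the 5p to 3p ratio of miR-10b overlaps between the sexes.

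Differences between the sexes were fitted over all 1120 miRNAs with edgeR's quasi-likelihood model after TMM scaling, with log2 fold changes given as male over female. The miR-10 guides stood at -2.75 (SE 0.22) for miR-10a-5p and -2.50 (SE 0.22) for miR-10b-5p. Their passenger arms stood at -1.66 (SE 0.36) for miR-10a-3p and -2.38 (SE 0.41) for miR-10b-3p, and miR-615-3p at -1.63 (SE 0.23). These 5 members, all of those that averaged at least 100 reads per library, had an adjusted p below 0.05 with the higher level in females, and 0 members had one with the higher level in males. Of all miRNAs tested, 5.27% had an adjusted p below 0.05 and were higher in females. The same 5 of the 8 members did not overlap in CPM between the sexes, as did 8.57% of all miRNAs in the direction of higher female levels, and since the members were chosen with this contrast known nothing is read from these counts. The other 3 were miR-196a-5p at -0.69 (SE 3.08), miR-196b-5p at -1.54 (SE 4.03) and miR-615-5p at 0.14 (SE 3.20), whose errors exceeded their differences. The median over the 8 members was -1.64, beside -0.02 over all miRNAs tested. miR-10a-3p fell short of the threshold when male library 1 was left out, at a log2 fold change of -1.76. In bulk tissue, fewer cells that express a miRNA and less of it per cell cannot be told apart.

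**Figure D3:**
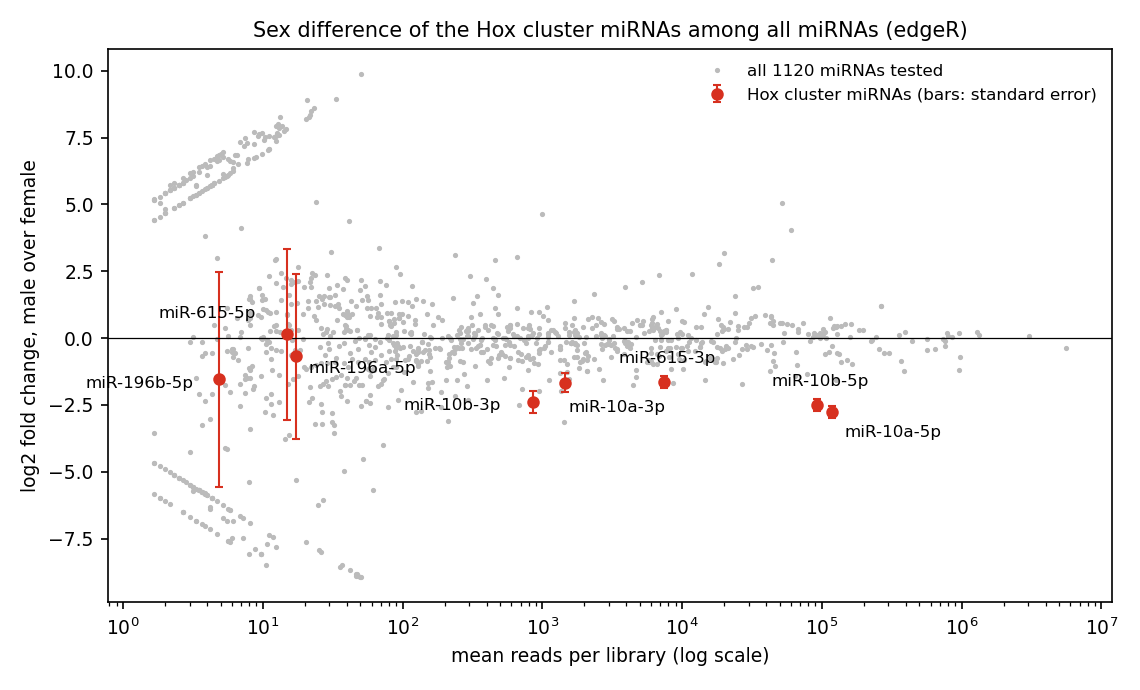
Log2 fold change, male over female, against the mean reads per library on a log scale for all 1120 miRNAs tested (grey) and the 8 Hox cluster miRNAs (red, bars are standard errors). The 5 abundant members lie between -1.63 and -2.75, and the bars of miR-196a-5p, miR-196b-5p and miR-615-5p cross 0.

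Base composition moved with the sex difference across miRNAs. Among 474 miRNAs with known sequence that averaged at least 100 reads, GC content and the log2 fold change had a Spearman correlation of 0.41, given as a description because the points share the same libraries. The miR-10 arms had a GC content of 36.4% to 43.5% and miR-615-3p one of 63.6%. When each library was given a GC-dependent offset, the log2 fold changes were -2.56 for miR-10a-5p, -2.30 for miR-10b-5p, -1.07 for miR-10a-3p, -1.98 for miR-10b-3p and -2.01 for miR-615-3p. The values of the miR-10 arms thus became smaller and that of miR-615-3p larger, and the 3p arm of miR-10a changed by more than 1.5 times. Without the offset miR-10a-5p, miR-10b-5p and miR-615-3p stood at -2.75, -2.50 and -1.63, so the guides and miR-615-3p lay closer together with it. The ratios of reads between them given above carry no such offset. All 5 stayed past the threshold.

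The closest relatives of miR-10 outside the Hox clusters are miR-99a-5p, miR-99b-5p and miR-100-5p. They are shown because they share most of their sequence with the miR-10 guides but have another seed, again in capitals and from RefSeq.
miR-100-5p: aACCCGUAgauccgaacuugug
miR-99a-5p: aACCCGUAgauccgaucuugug
miR-99b-5p: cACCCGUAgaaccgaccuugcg
miR-10a-5p was 3 single-base edits away from miR-100-5p, 4 from miR-99a-5p and 6 from miR-99b-5p. miR-99a-5p stood at 32326, 32639 and 39322 CPM in females and at 22008, 22671 and 25068 CPM in males, which did not overlap, but its log2 fold change of -0.70 (SE 0.26) was not past the threshold in edgeR's quasi-likelihood test (adjusted p = 0.116, with a range of 0.000271 to 0.368 over the alternatives). miR-100-5p stood at 9817, 11389 and 9600 CPM in females and at 7084, 7472 and 8481 CPM in males, also without overlap, and changed by -0.55 on the log2 scale (SE 0.23; adjusted p = 0.174, with a range of 0.0178 to 0.530). For miR-99b-5p the sexes overlapped, at 24311, 29089 and 20131 CPM in females and 27433, 25701 and 29438 CPM in males, and the log2 fold change was 0.03 (SE 0.26; adjusted p = 0.975, with a range of 0.498 to 0.988). All 3 relatives were more abundant than any Hox cluster miRNA in every library. Whether their sex difference was smaller than that of the miR-10 guides was not tested.

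The profiles of the members over the 6 libraries were compared by the root mean square difference of log2(CPM + 0.5), centred on the mean of each miRNA, among the 553 miRNAs that averaged at least 100 reads. A value near 0 means that 2 miRNAs moved by the same factor from library to library. miR-10a-5p and miR-10b-5p were 0.15 apart, closer than either was to any other miRNA, and miR-10b-3p followed at 0.43 from miR-10a-5p and 0.33 from miR-10b-5p. The other members were less alike, with miR-615-3p at 0.60 from miR-10a-5p. miR-10a-3p lay at 0.77 from miR-10a-5p and 0.64 from miR-10b-5p, further than the outside miRNAs listed next for each guide. Outside the members, the profile most like that of miR-10a-5p was that of miR-219a-5p, an oligodendrocyte lineage miRNA, at 0.52. miR-219a-5p rested on few reads, with a mean of 294 per library and 25 in male library 1 (1.34 CPM), where the added 0.5 weighs more. Its fold change was not past the threshold. Next to miR-10a-5p came miR-101a-3p at 0.61, miR-384-3p at 0.62, miR-181b-1-3p at 0.65 and miR-153-3p at 0.65. Those most like miR-10b-5p were miR-101a-3p and miR-384-3p, at 0.49 and 0.50, miR-219a-5p at 0.51, miR-137-3p at 0.53 and miR-19b-3p at 0.55. miR-615-3p lay nearer to other miRNAs than to the miR-10 arms. Its closest profile was that of miR-9-3p, a miRNA of neural progenitors, at 0.25, with miR-20b-5p at 0.32, miR-376c-3p and miR-137-3p at 0.34 and miR-340-5p at 0.35, while the nearest member, miR-10b-5p, was at 0.48. These lists were the same after TMM scaling. All of the named miRNAs were higher in females without overlap, by 2.12-fold for miR-9-3p to 8.34-fold for miR-153-3p. A large part of the measure is therefore the size of the sex difference, which was known when the members were chosen. Between miR-10a-5p and miR-615-3p, for example, the log2 ratio differed by -1.14 between the sexes (male minus female). Likeness within a sex was not compared separately.

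miRNAs that mark other tissues moved with the sexes of these libraries too. Their lists were written with earlier results of these data known, so the counts past the threshold are a description. Of all 1120 miRNAs tested, 36 were past it and higher in males, and 59 were past it and higher in females. The 4 skeletal muscle miRNAs summed to 388 to 1180 CPM in females and 5497 to 6139 CPM in males, and 4 of 4 were higher in males in edgeR's test, the median log2 fold change being 2.91. The 6 epithelial miRNAs of the miR-200 family and miR-205 summed to 429 to 1133 CPM in females and 7990 to 8284 CPM in males, and 5 of 6 were higher in males. Of 5 mesenchymal miRNAs, which summed to 4515 to 12642 CPM in females and 19307 to 23097 CPM in males, 4 were higher in males. The remaining one, miR-140-5p, had a log2 fold change of -0.39 and was not past the threshold. In their sums these lists therefore differed between the sexes in the direction opposite to the Hox cluster miRNAs. The 5 neural miRNAs differed in the same direction as the Hox cluster miRNAs but by less, summing to 226135 to 267219 CPM in females and 180342 to 208825 CPM in males, with 2 of 5 higher in females and a median log2 fold change of -0.56. Of the 4 erythroid miRNAs, which summed to 673 to 1367 CPM in females and 1605 to 1984 CPM in males, 1 was higher in males, although their median log2 fold change was -0.28. The liver miRNA miR-122-5p stood at 4.72 to 11.5 CPM in females and 5.84 to 16.1 CPM in males and did not pass the threshold. No marker was at 0 in all libraries, and 1 epithelial marker was at 0 in at least 1 library. The part of these tissues in the levels of the Hox cluster miRNAs was not tested. Hox mRNAs, and miRNAs of caudal neural tissue other than the members, were not analysed here, so the position along the neural tube could not be checked independently.

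**Figure D4:**
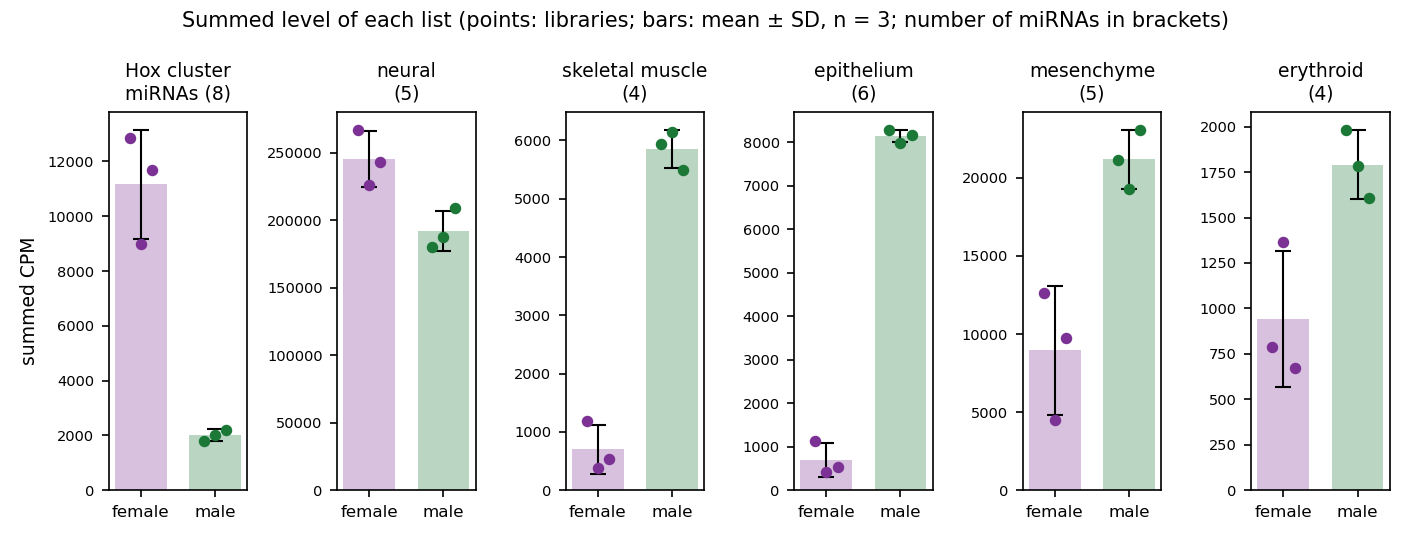
Summed level, in CPM, of the Hox cluster miRNAs and of 5 lists of tissue miRNAs, with each point a library and bars for the mean ± SD of 3 libraries per sex. Each panel has its own axis from 0. The Hox cluster sum lies between 8984 and 12867 CPM in females and between 1801 and 2206 CPM in males, the muscle, epithelial, mesenchymal and erythroid sums are higher in males, and the neural sum is higher in females.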

How the data were processed

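Small RNA-seq data from 6 libraries were analysed. The authors removed adaptors with cutadapt (1.15), mapped reads with Bowtie (1.2.1) to miRBase and mm9 in the miRDeep2 workflow, and deposited raw counts of reads per mature miRNA, without normalization. Molecular identifiers are not mentioned, so counts can include amplified copies. Levels are CPM of the library total. The members and lists were chosen with earlier results of these data known. Besides the members, the text names the other arms of their precursors, the miR-99/100 relatives and the 5 miRNAs with the profiles nearest to each abundant guide. The counts of miRNAs reaching 10 reads in total were scaled by TMM and tested for sex in R (4.3.3) with edgeR (4.0.16), using the quasi-likelihood test, Benjamini-Hochberg adjustment over all miRNAs and a threshold of 0.05. Each standard error was the size of the log2 fold change over the root of its F statistic. Exact tests planned for neighbours in the order of levels are not reported, because the order came from the libraries tested. Alternatives were other scalings, DESeq2 (1.42.0), 1 RUVr factor, other filters, a replicate block, a pseudocount of 1 read and each library left out. An offset for GC content (loess, span 0.75) was added after the data were seen. The fits were tested on 5 simulated datasets, with 200 miRNAs changed by 2 on the log2 scale and the same threshold. edgeR recovered 39.5% of the changes, or 65.5% among miRNAs that averaged at least 100 reads, with 4.09% of its calls false. DESeq2 recovered 47.2%, or 75.2% among those miRNAs, with 15.7% of its calls false, so its calls are less strict than the threshold implies. For edgeR with 1 RUVr factor the values were 39%, 64.8% and 4.86%. No unwanted factor was simulated, so these do not show what RUVr does where there is one. DESeq2 with that factor was not simulated.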

Additional observations from a re-analysis of the deposited data

How the results depend on the processing

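The 5 abundant Hox cluster miRNAs stayed lower in males under all 15 alternatives. Their log2 fold changes ranged from -2.83 to -2.56 for miR-10a-5p, -2.62 to -2.30 for miR-10b-5p, -2.67 to -1.98 for miR-10b-3p, -1.98 to -1.07 for miR-10a-3p and -2.01 to -1.42 for miR-615-3p. All 5 were past the threshold in each, except that 4 were without male library 1. Leaving out libraries moved the sparse members from -7.65 to 7.19 for miR-196a-5p, from -6.32 to 5.01 for miR-196b-5p and from -1.19 to 2.36 for miR-615-5p. For miR-99b-5p the range was -0.11 to 0.24, and its value was -0.026 with at least 10 reads in every library and -0.35 with the GC offset. The sparse members rest on 0 to 66 reads per library, which sets no direction.

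Same-numbered libraries did not deviate together over all miRNAs (correlations of -0.049, -0.011 and 0.046). The labels do not say what the number stands for, and whether such libraries shared a litter or a batch was not tested. With the replicate block, 92 miRNAs passed in place of 95, 5 of them members, and miR-99a-5p stood at -0.71, past the threshold. miR-99a-5p was also past it with DESeq2, with the RUVr factor in either tool, with at least 10 reads in every library and without female library 2, and miR-100-5p with DESeq2 with and without the RUVr factor. Over all miRNAs, 95 passed, 36 higher in males and 59 in females. The number was 225 with DESeq2 and the RUVr factor, 147 with edgeR and that factor, 203 without female library 2, 60 without female library 3, 30 without male library 1 and 58 with the GC offset. With library size in place of TMM it was 89, with 50 higher in males and 39 in females, and the median log2 fold change of all miRNAs was 0.11 in place of -0.02. The causes of these shifts were not tested. Dixon's test was not applied, since each group had 3 libraries.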
